A study of Homo sapiens with 18 samples.

Results

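The SR splicing factor genes SRSF1, SRSF2, SRSF3, SRSF4, SRSF5, SRSF6, SRSF7, SRSF10, and SRSF11 and the gene of the SR protein kinase CLK1 were followed in 18 RNA-seq samples of VCaP, an ERG-positive metastatic prostate cancer cell line with the TMPRSS2:ERG fusion. The 10 genes were chosen by name from the 22034 genes in the table, and all 10 passed the filter on low counts. In the first experiment, VCaP-shERG cells, which carry a doxycycline-inducible hairpin against ERG in the pLKO-Tet-on vector, received vehicle (group shERG.DMSO) or 1 µg/mL doxycycline (group shERG.Dox, called Dox here). In the second, the parental line received DMSO or PBITE-1, the study's ERG-directed compound, at 50 µM, and RNA was taken at 4, 8, and 12 h of PBITE-1. Each of the 6 groups held 3 samples, all grown in DMEM+GlutaMax with 10% FBS, and the 3 times were compared with the same DMSO samples. The labels used here give neither the length of the Dox treatment nor the time of the DMSO samples. Changes with time in culture and changes with time on PBITE-1 therefore cannot be told apart. No Dox sample of a line without the ERG hairpin was analysed here, so an effect of Dox itself and that of ERG knockdown cannot be told apart.

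SR proteins carry RNA recognition motifs and a domain rich in arginine and serine, and they bind exonic enhancers and recruit the splicing machinery to nearby splice sites. Their activity and place in the nucleus depend on phosphorylation: SRPK kinases phosphorylate them in the cytoplasm, transportin-SR (TNPO3) imports them, and the CLK kinases phosphorylate them further and release them from nuclear speckles. Many SR genes limit their own expression by including a poison exon or retaining an intron, which sends the transcript to nonsense-mediated decay or holds it in the nucleus, and CLK1 transcripts with retained introns are likewise held in the nucleus. The table held 1 count per gene, so productive mRNA could not be separated from such transcripts. In the GENCODE 29 annotation (GRCh38), all 10 genes had at least 1 transcript labelled as a target of nonsense-mediated decay, a class found in 37.7% of 17321 protein-coding genes. A transcript labelled as retained intron was annotated for 8 of the 10 genes, against 51.1% of protein-coding genes, and SRSF6 and SRSF11 had none.

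Promoter windows from RefSeq (GRCh38.p14), which run from 250 bases before to 50 bases after the annotated start, were matched for 9 of the 10 genes. None was matched for SRSF2, while SRSF7, SRSF11, and CLK1 had more than a single window each. The windows were searched on both strands for CCGGAA, a form of the sites bound by ETS factors such as ERG. Only this form was searched for. The motif was found in SRSF4 and SRSF5, 2 of 9 genes, and in 17.2% of 35116 promoter windows of the same length. The first is counted by gene and the second by window, so they are not in the same unit. Neither the E-box CACGTG (7.26% of windows) nor the cAMP response element TGACGTCA (1.85%) was found in any of the 9 genes. The windows of SRSF4 and SRSF5 are shown because they carry CCGGAA. A window of CLK1 is shown because CLK1 is the gene whose level moved the other way under PBITE-1. Each is written 5′ to 3′ in the direction of the gene, with CCGGAA, or its reverse complement TTCCGG, in capitals.
SRSF4 (chr1:29181851-29182150, minus strand): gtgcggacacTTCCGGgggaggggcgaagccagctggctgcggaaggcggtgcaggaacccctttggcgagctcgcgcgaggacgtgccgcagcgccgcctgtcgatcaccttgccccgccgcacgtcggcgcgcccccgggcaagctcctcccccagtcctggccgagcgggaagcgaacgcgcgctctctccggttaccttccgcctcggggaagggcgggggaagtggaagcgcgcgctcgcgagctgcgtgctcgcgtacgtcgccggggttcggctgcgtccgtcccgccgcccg
SRSF5 (chr14:69766892-69767191, plus strand): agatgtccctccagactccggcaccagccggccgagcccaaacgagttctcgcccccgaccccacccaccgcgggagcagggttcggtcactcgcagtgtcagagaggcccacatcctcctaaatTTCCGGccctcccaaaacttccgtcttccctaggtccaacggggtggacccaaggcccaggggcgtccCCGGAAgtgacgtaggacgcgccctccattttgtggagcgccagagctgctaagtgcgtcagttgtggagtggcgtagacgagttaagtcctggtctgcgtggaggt
CLK1 (chr2:200864609-200864908, minus strand): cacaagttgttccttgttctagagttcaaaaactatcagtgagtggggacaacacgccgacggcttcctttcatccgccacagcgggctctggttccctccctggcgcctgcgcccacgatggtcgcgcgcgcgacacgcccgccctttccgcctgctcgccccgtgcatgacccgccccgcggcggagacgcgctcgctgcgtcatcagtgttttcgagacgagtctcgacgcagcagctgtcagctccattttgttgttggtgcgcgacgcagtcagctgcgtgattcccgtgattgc
The single SRSF4 match lay at -240 from the start, and the SRSF5 matches lay at -57 and -125. A match of letters does not show binding, and no binding data were analysed here.

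ERG, the target of the hairpin, was measured first. It was at 461, 449, and 433 CPM (counts scaled to a common library total, with TMM factors within each experiment) in the shERG.DMSO samples and at 166.5, 167, and 159 CPM with Dox. In parental cells it was at 280, 289.5, and 298 CPM with DMSO, at 178, 184, and 178 CPM at 4 h, at 96.6, 94.0, and 90.7 CPM at 8 h, and at 102.5, 88.5, and 101 CPM at 12 h of PBITE-1. The ERG groups with treatment did not overlap their controls, in the direction of the labels. Totals ranged from 11308600 to 17483423 counts per sample, and the 10 genes together took 0.236 to 0.246% of the counts with DMSO and 0.160 to 0.165% at 12 h of PBITE-1. The epithelial genes EPCAM and KRT8 were present in all groups, while PTPRC and VIM stayed under 0.4 CPM in every group mean. EPCAM averaged 320 CPM with DMSO and 208 CPM at 12 h, and KRT8 112 and 215 CPM. The 8 VCaP markers listed, ERG among them, summed to 4976 to 5166 CPM with DMSO and 2726 to 3259 CPM at 12 h. This sum was 7130 to 7231 CPM with shERG.DMSO and 3727 to 3781 CPM with Dox. Of 8 markers of other cell types, 7 were in the table, and their summed level was 74.2 to 84.2 CPM with DMSO, 84.9 to 92.7 CPM at 12 h, 97.1 to 98.6 CPM with shERG.DMSO, and 141 to 150.4 CPM with Dox, mostly from CHGA and SYP. Their part in the results below was not tested.

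The first question was how the genes differed in level before treatment. Per kilobase of the principal transcript, SRSF1 was highest in parental DMSO cells at 289 CPM per kb, followed by SRSF2 at 117, SRSF6 at 80.6, SRSF5 at 79.9, SRSF3 at 74.9, SRSF10 at 58.4, SRSF7 at 58.2, CLK1 at 52.4, SRSF11 at 46.3, and SRSF4 at 26.7 CPM per kb. The samples of SRSF6 overlapped those of SRSF5 and SRSF3, and the samples of SRSF10 overlapped those of SRSF7. With the length of all annotated exons in place of the principal transcript the order changed below SRSF2: SRSF6 stood at 75.9 CPM per kb and SRSF4 was still lowest, at 7.17 CPM per kb. SRSF2 overlaps MFSD11 on the opposite strand, which had at most 730 counts in a sample, while SRSF2 had 2069 to 5813, and whether the counting used strand is not stated. Named pseudogene copies of these genes in the table had at most 3 counts.

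Most of the SR genes were lower with Dox. With Dox, 7 of the 10 genes fell, 2 rose, and 1 did not pass the test (limma-voom, adjusted p under 0.05), where 35.3% of the 14164 tested genes fell and 35.1% rose. The median log2 fold change was -0.39 over the 10 genes and 0.018 over all tested genes. SRSF1, SRSF2, SRSF3, SRSF7, and SRSF10 fell most, SRSF5 and SRSF6 rose to 1.14 and 1.12 times their vehicle level, and CLK1 changed by no more than the test could show. All 9 changes that passed the test were under 2-fold, where 1019 of the 14164 tested genes fell and 1699 rose past 2-fold. In bulk RNA of a culture, fewer cells that express a gene and less of its RNA per cell cannot be told apart.

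**Figure D1:**
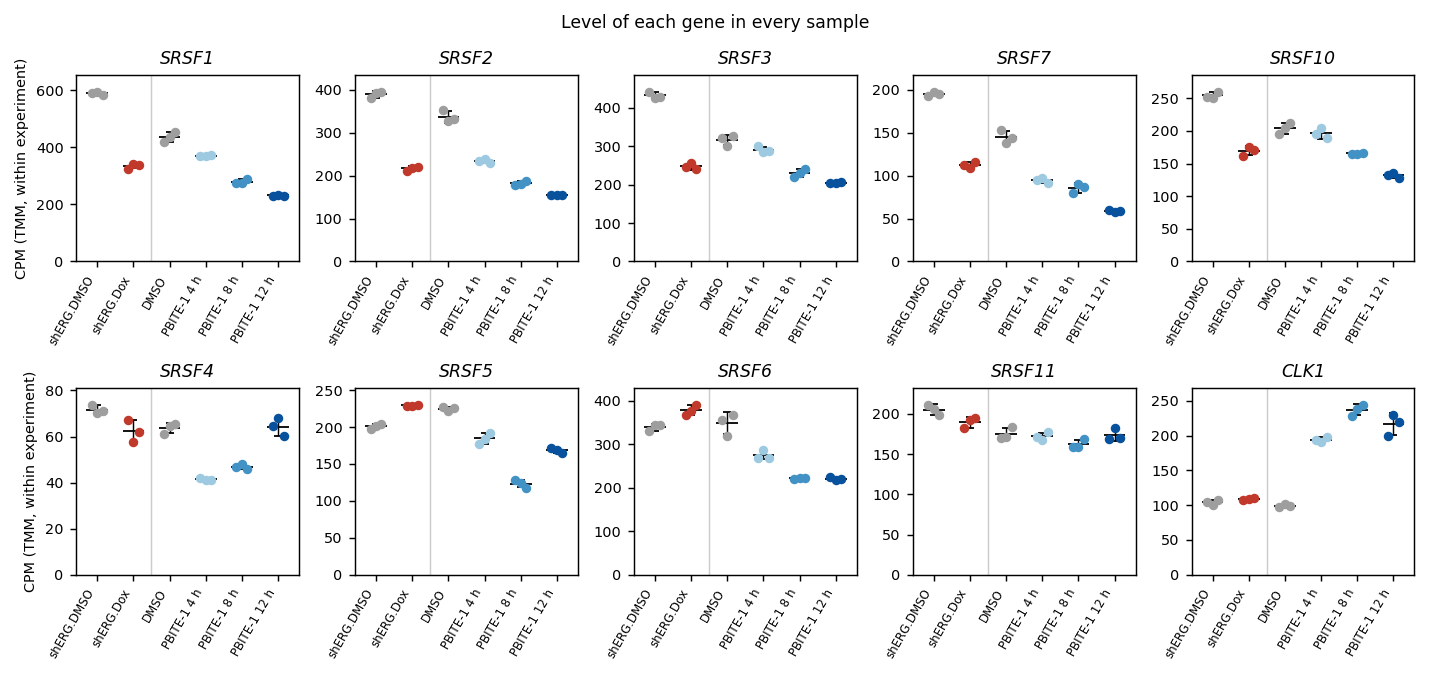
Level of each gene in CPM (vertical axis, linear, from 0; TMM scaling within each experiment) in every sample of the 6 groups; points are samples, horizontal bars are means and error bars SD (n = 3), and the grey line parts the VCaP-shERG from the parental experiment. SRSF1, SRSF2, SRSF3, SRSF7, and SRSF10 stepped down in both experiments, SRSF4 and SRSF5 dipped and came back in part or in full under PBITE-1, and CLK1 was higher in all 9 PBITE-1 samples than in DMSO.

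SRSF1, a general splicing factor that also acts in mRNA export and translation, was at 592, 596, and 583 CPM with vehicle and at 326, 342, and 337 CPM with Dox. The Dox samples all lay far below the vehicle samples, and the level with Dox was 0.567 of that with vehicle (log2 fold change -0.82 ± 0.028 SE, limma-voom adjusted p = 3.63e-19). SRSF2, a factor with an RNA recognition motif that is recurrently mutated in myeloid neoplasms, went from 381, 392.4, and 396 CPM to 211.5, 219, and 221 CPM. This was a fall to 0.556 of the vehicle level (log2 fold change -0.85 ± 0.032 SE, limma-voom adjusted p = 3.42e-18). SRSF3, the smallest SR protein and an adaptor of mRNA export, was at 442, 426, and 428 CPM with vehicle and at 245, 256, and 240 CPM with Dox. SRSF7, which differs from the other members by a zinc knuckle, fell from 193, 198, and 195 CPM to 112, 109, and 116 CPM. The SRSF3 and SRSF7 groups did not overlap, and their log2 fold changes were -0.81 ± 0.032 and -0.80 ± 0.040 (SE). SRSF10, which acts as a repressor when dephosphorylated, was at 252, 250.1, and 260.2 CPM with vehicle and at 162, 176, and 171 CPM with Dox, a log2 fold change of -0.59 ± 0.037 (SE).

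SRSF5 and SRSF6, close relatives of SRSF4 in sequence, moved up. SRSF5 was at 197.5, 201.5, and 204 CPM with vehicle and at 229, 229, and 230.1 CPM with Dox. SRSF6 was at 330.2, 344, and 344 CPM with vehicle and at 369, 377, and 391 CPM with Dox. Neither gene's groups overlapped, and the log2 fold changes were 0.19 ± 0.034 for SRSF5 (limma-voom adjusted p = 2.24e-05) and 0.16 ± 0.031 for SRSF6 (limma-voom adjusted p = 7.15e-05). Both were higher under each scaling tried, at 0.35 and 0.32 with upper-quartile factors.

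The direction or the call of SRSF4, SRSF11, and CLK1 depended on the scaling. SRSF4 was at 73.8, 70.0, and 71.1 CPM with vehicle and at 67.2, 57.5, and 62.0 CPM with Dox, a difference of -0.20 ± 0.058 SE on the log2 scale (limma-voom adjusted p = 0.00326). SRSF11 was at 211, 207, and 198 CPM with vehicle and at 182, 192, and 195 CPM with Dox, which gave -0.12 ± 0.038 SE on the log2 scale (limma-voom adjusted p = 0.00856). Neither gene's groups overlapped, but with library size alone both log2 fold changes were above 0, at 0.060 for SRSF4 and 0.15 for SRSF11. CLK1, the kinase, was at 105, 101, and 107 CPM with vehicle and at 108, 109, and 110.5 CPM with Dox. Its log2 fold change was 0.066, with a 95% interval from -0.025 to 0.16 (limma-voom adjusted p = 0.184), and it passed the test at 0.23 with upper-quartile factors and at 0.33 with library size alone.

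Ratios of 2 genes within a library do not depend on the scaling between libraries, and the ratios given here were chosen after the values were seen. SRSF6 had 0.558, 0.577, and 0.589 counts for each count of SRSF1 with vehicle and 1.13, 1.10, and 1.16 with Dox. SRSF5 had 0.334, 0.338, and 0.350 counts per SRSF1 count with vehicle and 0.703, 0.669, and 0.683 with Dox. The ratios did not overlap between the groups, and SRSF6 counts exceeded SRSF1 counts in all 3 Dox samples and in no vehicle sample. Counts were not divided by length here, and the principal transcripts have 4325 bases (SRSF6) and 1513 bases (SRSF1). A count ratio above 1 therefore does not place SRSF6 above SRSF1 per kilobase. In the parental line the SRSF6 to SRSF1 ratio was 0.734 to 0.850 with DMSO, and with PBITE-1 it was between 0.725 and 0.778 at 4 h, between 0.771 and 0.812 at 8 h, and between 0.946 and 0.971 at 12 h. It overlapped DMSO at 4 h and 8 h and lay above it at 12 h. The SRSF5 to SRSF1 ratio was 0.496 to 0.541 with DMSO, and its range was 0.4802 to 0.516 at 4 h. It lay between 0.408 and 0.468 at 8 h and between 0.715 and 0.744 at 12 h, which was below DMSO at 8 h and above it at 12 h. SRSF4 had 0.354 to 0.382 counts per SRSF7 count with shERG.DMSO and 0.529 to 0.599 with Dox. In the parental line this ratio was 0.4005 to 0.468 with DMSO, and 0.424 to 0.451 at 4 h. It lay between 0.527 and 0.592 at 8 h and between 1.035 and 1.18 at 12 h, without overlap with DMSO at 8 h and 12 h.

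The second question was how the same genes behaved over time with PBITE-1. At 4 h, 7 genes fell, 1 rose, and 2 did not pass the test, against 24.7% of tested genes lower and 26.4% higher. At 8 h, 9 fell and 1 rose, against 37.0% lower and 35.9% higher. At 12 h, 7 fell, 1 rose, and 2 did not pass the test, against 39.4% lower and 39.4% higher. The median log2 fold change of the 10 genes was -0.26, -0.55, and -0.63 at 4, 8, and 12 h, while that of all tested genes stayed between -0.023 and -0.0074. The summed level of the 9 SR genes was 2258, 2184, and 2312 CPM with DMSO, 1855, 1872, and 1851 CPM at 4 h, 1472, 1491, and 1529 CPM at 8 h, and 1412, 1421, and 1393 CPM at 12 h. No group overlapped another in this sum.

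**Figure D2:**
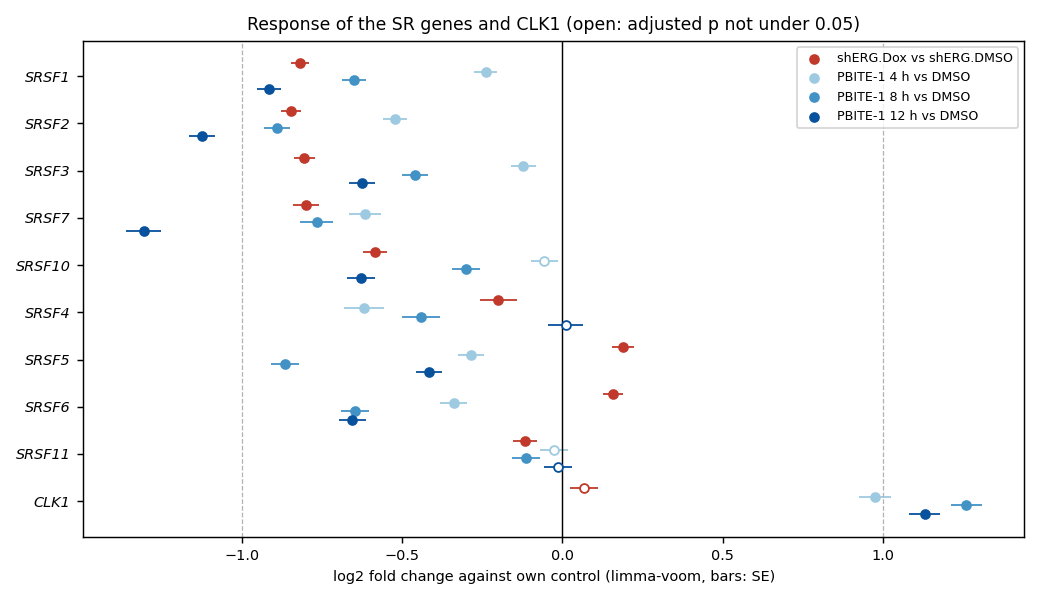
Log2 fold change (horizontal axis) of each gene with Dox against shERG.DMSO and with PBITE-1 at 4, 8, and 12 h against DMSO, from limma-voom with 3 samples per group; bars are SE, open points did not pass the test, and dashed lines mark a 2-fold change. SRSF2 and SRSF7 passed 2-fold at 12 h, CLK1 lay between 0.97 and 1.26 with PBITE-1 and near 0 with Dox, and SRSF5 and SRSF6 lay on opposite sides of 0 in the 2 experiments.

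The genes fell into courses that were sorted after the values were seen, and no test was made of the sorting. SRSF1, SRSF2, SRSF3, SRSF7, and SRSF10 stepped down through 12 h. SRSF7 was at 153, 138, and 144 CPM with DMSO, at 94.7, 97.1, and 91.4 CPM at 4 h, at 79.2, 90.0, and 87.2 CPM at 8 h, and at 59.6, 57.7, and 58.2 CPM at 12 h. It had the largest fall of the 10 genes, to 0.404 of the DMSO level at 12 h (log2 fold change -1.31 ± 0.054 SE, limma-voom adjusted p = 3.72e-23). SRSF2 was at 354, 327, and 332 CPM with DMSO, at 235.5, 238, and 230.5 CPM at 4 h, at 178, 179.9, and 189 CPM at 8 h, and at 154, 155, and 155 CPM at 12 h. It reached 0.459 of the DMSO level (log2 fold change -1.12 ± 0.040 SE, limma-voom adjusted p = 2.91e-25). SRSF2 and SRSF7 were the 2 SR genes of the 9 that passed 2-fold at 12 h, and no group of either gene overlapped the next. Of all 14164 tested genes, 2176 fell and 2420 rose past 2-fold at 12 h, and the 2 of 9 were not tested against these.

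SRSF1 was at 420, 436, and 454 CPM with DMSO, at 369.5, 369, and 372 CPM at 4 h, at 274, 274, and 289 CPM at 8 h, and at 231, 232, and 231 CPM at 12 h. Each step was larger than the spread of the samples, and the log2 fold change reached -0.92 ± 0.037 SE at 12 h (limma-voom adjusted p = 1.83e-23). SRSF3 was slower, with 320.2, 301, and 327 CPM with DMSO, 299.9, 284, and 288 CPM at 4 h, 221, 229, and 242 CPM at 8 h, and 205, 204, and 206 CPM at 12 h. Its log2 fold change was -0.12 ± 0.040 SE at 4 h and -0.63 ± 0.041 SE at 12 h, and the 4 h value no longer passed the test without DMSO replicate 3 (-0.095) or without 4 h replicate 2 (-0.10). SRSF10 was at 195.5, 204, and 212 CPM with DMSO and overlapped it at 4 h, at 195.3, 204, and 188.5 CPM. At 8 h it stood at 165, 164, and 167 CPM and at 12 h at 132, 136, and 128 CPM. The 4 h interval of SRSF10 ran from -0.14 to 0.029 on the log2 scale, and by 12 h the log2 fold change was -0.63 ± 0.044 (SE). With library size alone, the 4 h value of SRSF10 passed the test as lower (-0.10, limma-voom adjusted p = 0.0345).

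SRSF4 and SRSF5 fell and came back. SRSF4 was at 61.1, 64.8, and 65.3 CPM with DMSO, dropped to 42.0, 41.2, and 41.2 CPM at 4 h, was at 46.9, 47.9, and 46.0 CPM at 8 h, and stood at 64.6, 67.9, and 60.2 CPM at 12 h. The 4 h and 8 h samples lay below all DMSO samples, whereas the 12 h samples spread across them. The log2 fold change of SRSF4 was -0.62 ± 0.062 SE at 4 h (limma-voom adjusted p = 6.47e-11) and 0.010 at 12 h, with a 95% interval from -0.10 to 0.12. From 8 h to 12 h SRSF4 rose by 0.45 ± 0.060 (SE) on the log2 scale. SRSF5 had its low point later, with 227, 222, and 225 CPM with DMSO, 177, 184, and 192 CPM at 4 h, 128, 124, and 118 CPM at 8 h, and 172, 168, and 165 CPM at 12 h. It also rose by 0.45 ± 0.045 (SE) from 8 h to 12 h but remained below DMSO, at -0.42 ± 0.041 SE (limma-voom adjusted p = 9.18e-12).

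SRSF6 fell by 8 h and then stayed level. It was at 357, 319.9, and 369 CPM with DMSO, at 269, 287, and 269.7 CPM at 4 h, at 221.5, 223, and 223 CPM at 8 h, and at 224.5, 219, and 219.7 CPM at 12 h. The 8 h and 12 h samples overlapped, with a 95% interval of their difference from -0.10 to 0.083 on the log2 scale, and the change from DMSO was -0.65 at both times. SRSF11, whose groups overlapped at 4 h and 12 h, was at 170.2, 171, and 184 CPM with DMSO, at 172, 167, and 177 CPM at 4 h, at 159, 159, and 168 CPM at 8 h, and at 169, 182, and 169.9 CPM at 12 h. Its only change from DMSO to pass the test was -0.11 ± 0.044 SE at 8 h (limma-voom adjusted p = 0.0204). This did not pass without DMSO replicate 3 (-0.078), 8 h replicate 1 (-0.099), or 8 h replicate 2 (-0.10). It also did not pass with at least 10 counts in every sample (-0.092).

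**Figure D3:**
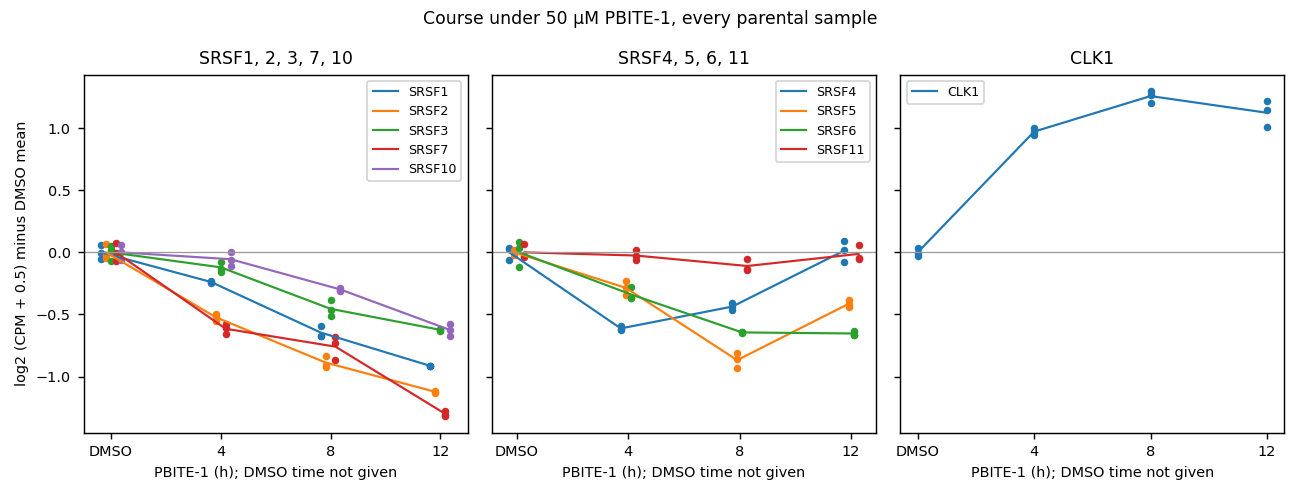
Log2 (CPM + 0.5) of every parental sample minus the mean of the DMSO samples (vertical axis), against hours of 50 µM PBITE-1 (horizontal axis; the time of the DMSO samples is not given); points are samples, offset sideways by gene, and lines join means of 3. The left panel holds the genes that stepped down, the middle panel SRSF4, SRSF5, SRSF6, and SRSF11, and the right panel CLK1, which lay 0.97 above DMSO at 4 h in the fit.

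CLK1 rose at the first time point and stayed up. It was at 96.8, 101, and 98.5 CPM with DMSO, at 194, 190.4, and 198.5 CPM at 4 h, at 228, 239, and 244 CPM at 8 h, and at 199, 229.9, and 219.5 CPM at 12 h. All 9 PBITE-1 samples lay above all DMSO samples, at 1.97-fold (log2 fold change 0.97 ± 0.049 SE, limma-voom adjusted p = 1.496e-19), 2.39-fold (1.26 ± 0.048 SE, limma-voom adjusted p = 4.08e-24), and 2.19-fold (1.13 ± 0.048 SE, limma-voom adjusted p = 8.74e-23). The fall of CLK1 from 8 h to 12 h, -0.13 ± 0.044 SE, was found with overlapping samples. It did not pass the test without 12 h replicate 1 (-0.074), without 8 h replicate 3 (-0.11), or with only the groups compared (-0.097). Counted within each library, CLK1 had 4.29, 4.63, and 4.26 counts per 100 counts of the 9 SR genes with DMSO and 14.1, 16.2, and 15.8 at 12 h. The same ratio was 3.93, 3.75, and 4.00 with shERG.DMSO and 5.66, 5.56, and 5.63 with Dox.

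Steps between time points were tested in the same fit. From 4 h to 8 h, 7 of the 10 genes fell and 2 rose, SRSF4 and CLK1, against 26.3% of tested genes lower and 26.7% higher. The fall of SRSF7 in this step, -0.15 ± 0.055 SE, did not pass without 4 h replicate 2 (-0.13) or 8 h replicate 1 (-0.089), and the rise of SRSF4, 0.18 ± 0.067 SE, did not pass without 4 h replicate 2 (0.17), 4 h replicate 3 (0.18), 8 h replicate 1 (0.18), or 8 h replicate 2 (0.17). From 8 h to 12 h, 6 fell and 3 rose, SRSF4, SRSF5, and SRSF11, against 32.5% lower and 27.8% higher. The rise of SRSF11 in this step was 0.10 ± 0.045 SE (limma-voom adjusted p = 0.0491), and it did not pass with edgeR's quasi-likelihood test (0.10, adjusted p = 0.0584) or without 8 h replicate 1 (0.086), 8 h replicate 2 (0.090), 12 h replicate 2 (0.066), or 12 h replicate 3 (0.12). It also did not pass with no filter on low counts (0.099), at least 10 counts in every sample (0.090), or all 18 samples in a single fit (0.089). The direct comparison of 12 h with 4 h, added after the values were seen, had 7 lower and 2 higher, against 35.0% lower and 35.0% higher. In it, SRSF4 rose by 0.63 ± 0.063 (SE) on the log2 scale, and SRSF1, SRSF2, SRSF3, SRSF7, and SRSF10 fell by 0.50 to 0.69. The fall of SRSF5 in the same comparison, -0.13 ± 0.043 SE, did not pass without 4 h replicate 3 (-0.10).

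The third question was whether Dox and 12 h of PBITE-1 changed these genes by different amounts, tested as an interaction over all 18 samples. The difference passed the test with PBITE-1 lower for 5 genes and higher for 2, against 35.1% of tested genes lower and 33.3% higher. SRSF6 differed by -0.85 ± 0.056 SE (limma-voom adjusted p = 6.33e-18) and SRSF5 by -0.65 ± 0.054 SE (limma-voom adjusted p = 1.99e-14), since both rose with Dox and fell with PBITE-1. CLK1 differed by 1.02 ± 0.069 SE (limma-voom adjusted p = 2.03e-17). SRSF7 and SRSF2 fell more with PBITE-1, by -0.55 ± 0.069 and -0.32 ± 0.053 (SE), and SRSF1 did so by -0.14 ± 0.048. For SRSF3 the difference was 0.14 ± 0.054 SE (limma-voom adjusted p = 0.0205). It was -0.12 with library size alone, and it did not pass with upper-quartile factors (0.014), without shERG.DMSO replicate 1 (0.12), or without DMSO replicate 2 (0.10). For SRSF10 the 95% interval of the difference was -0.20 to 0.034, for SRSF11 -0.059 to 0.18, and for SRSF4 0.0091 to 0.33 (limma-voom adjusted p = 0.0563), and under library size alone the differences of SRSF4 and SRSF11 were below 0. The agents and the lines of the 2 experiments differ, and the time of Dox is not given, so these cannot be told apart in this comparison.

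The remaining SR genes in a list of 5 gave a similar spread of values. With Dox, 3 of the 5 fell and 1 rose (35.3% and 35.1% of all tested genes), and at 12 h of PBITE-1 4 fell and 1 rose (39.4% and 39.4%). SRSF8, an SR protein encoded by a retrogene of SRSF2, fell by 0.69 ± 0.054 (SE) with Dox and by 0.56, 1.19, and 0.95 at 4, 8, and 12 h, on the log2 scale. SRSF9 fell by 0.41 with Dox and by 0.59 at 12 h. TRA2B, a splicing activator that promotes its own poison exon, fell by 0.77 ± 0.038 (SE) with Dox and by 0.29 ± 0.042 at 12 h, whereas its paralog TRA2A rose by 0.54 ± 0.053 at 12 h and had 0.021 with Dox (limma-voom adjusted p = 0.701). SRSF12 was the gene that rose with Dox, at 5.99, 5.95, and 5.62 CPM with vehicle and 6.98, 7.31, and 8.06 CPM with Dox (log2 fold change 0.34 ± 0.15 SE, limma-voom adjusted p = 0.0494), and no gene of the list rose with DESeq2, in the single fit of 18 samples, or with the replicate number as a block. SRSF12 had few counts, 5.80 to 7.14 CPM with DMSO and 1.504 to 1.88 CPM at 12 h, a log2 fold change of -1.87 ± 0.24 (SE).

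The genes that act on SR proteins by phosphorylation, dephosphorylation, or import, 12 in the list, moved in both directions. In this list 7 rose and 4 fell at 12 h, with a median of 0.11, against 39.4% of all tested genes in each direction. The 7 became 4 with library size alone, with no filter on low counts, or with all 18 samples in a single fit. With Dox, 3 rose and 7 fell, with a median of -0.14, against 35.1% and 35.3% of all tested genes. Library size alone gave 7 higher and 3 lower, and the shares of all tested genes were not counted there. CLK4, the paralog closest to CLK1, was at 19.0, 18.6, and 22.7 CPM with shERG.DMSO and at 39.5, 40.3, and 40.5 CPM with Dox, and the log2 fold change was 1.00 ± 0.082 SE (limma-voom adjusted p = 2.83e-11). With PBITE-1 it was at 18.2 to 22.5 CPM at 4 h, which overlapped the 16.8 to 20.3 CPM of DMSO, and it passed the test at 8 h (0.72 ± 0.095) and at 12 h (0.73 ± 0.095). CLK2 had -0.21 with Dox and 0.15 at 12 h, and CLK3 had 0.037 with Dox, which did not pass the test, and 0.38 at 12 h.

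SRPK1, which phosphorylates SR proteins in the cytoplasm, fell with Dox from 220.5, 218, and 216 CPM to 117, 112, and 129 CPM, and the log2 fold change was -0.87 ± 0.043 SE (limma-voom adjusted p = 9.16e-16). With PBITE-1 it was 0.22 ± 0.043 higher at 4 h and 0.34 ± 0.045 lower at 12 h. Its paralog SRPK2 rose in all 4 comparisons, by 0.46 with Dox and by 0.32, 0.53, and 0.45 at 4, 8, and 12 h. DYRK1B rose by 0.96 with Dox, 0.84 at 8 h, and 1.23 at 12 h, and DYRK1A had 0.089 at 12 h. PRPF4B, a kinase of the spliceosome, fell by 0.36 with Dox and by 0.45, 1.00, and 0.34 at 4, 8, and 12 h. Of the catalytic subunits of protein phosphatase 1, PPP1CC fell by 0.85 with Dox and by 0.16 at 12 h, PPP1CB fell by 0.18 and 0.21, and PPP1CA had -0.096 with Dox and 0.13 at 12 h. TNPO3 fell by 0.27 with Dox and had 0.067 at 12 h (limma-voom adjusted p = 0.166).

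**Figure D4:**
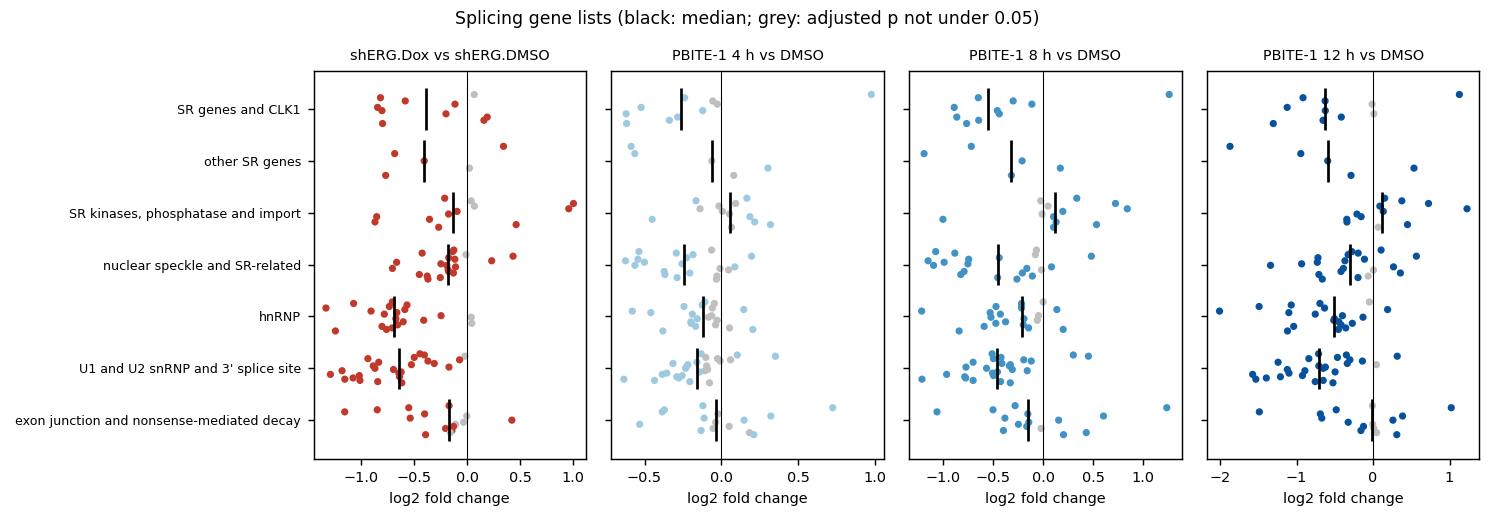
Log2 fold change (horizontal axis, a different range in each panel) of every tested gene of 7 lists with Dox and with PBITE-1 at 4, 8, and 12 h; coloured points passed the test, grey points did not, and black bars are list medians. The hnRNP and the U1 and U2 lists lay mostly below 0, with medians of -0.51 and -0.71 at 12 h, and the kinase, phosphatase, and import list lay on both sides of 0.

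Other classes of splicing genes were set beside all tested genes, of which 35.3% fell and 35.1% rose with Dox and 39.4% fell and 39.4% rose at 12 h. Of 20 hnRNP genes, whose products often oppose SR proteins at exons, 18 fell with Dox (median -0.69) and 18 fell and 1 rose at 12 h (median -0.51). HNRNPAB had the lowest value with Dox, -1.33 ± 0.039 (SE), and HNRNPD at 12 h, -2.01 ± 0.041 (SE), and HNRNPC was highest at 12 h, at 0.19. Of 25 genes of the U1 and U2 particles and of recognition of the 3′ splice site, 24 fell with Dox (median -0.65) and 23 fell and 1 rose at 12 h (median -0.71). The Sm protein gene SNRPD1 was lowest in both, at -1.29 ± 0.063 and -1.58 ± 0.075 (SE), and SF3A1 of the U2 particle was highest, at -0.022 with Dox and 0.32 at 12 h. Of 20 nuclear speckle and SR-related genes, 17 fell and 2 rose with Dox (median -0.18; 6 fell and 10 rose with library size alone), and 14 fell and 4 rose at 12 h (median -0.30), from RBM25 at -1.34 to LUC7L at 0.57.

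The genes of the exon junction complex and of nonsense-mediated decay were mixed. Of 15, 10 fell and 1 rose with Dox (5 and 6 with library size alone), and 7 fell and 4 rose at 12 h, with a median of -0.0088. Of all tested genes, 35.3% fell and 35.1% rose with Dox and 39.4% fell and 39.4% rose at 12 h, and the 12 h counts of this list were near those shares. EIF4A3, the helicase that anchors the exon junction complex, was at 94.9, 88.0, and 92.0 CPM with DMSO, at 160.1, 146, and 148.5 CPM at 4 h, at 213, 216, and 218 CPM at 8 h, and at 176, 201, and 182 CPM at 12 h. Its PBITE-1 samples lay above all DMSO samples, and its log2 fold change was 0.72 ± 0.052, 1.24 ± 0.050, and 1.02 ± 0.050 (SE) at the 3 times. With Dox, EIF4A3 was at 60.8, 62.8, and 65.0 CPM against 91.5, 94.2, and 90.5 CPM with vehicle. MAGOHB, which forms part of the same complex, was lowest in the list with Dox (-1.16 ± 0.11) and at 12 h (-1.49 ± 0.098).

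The genes most like CLK1 were ranked by Pearson's r over the 18 samples, among 11303 genes with a mean count of at least 50. The values correlated were log2 CPM minus the control mean of the same experiment, which removes differences in level between the control groups. The samples share 6 groups, so the r values are a description and were not tested. The 5 most like it were STK17A (r = 0.997), DUSP14 (0.994), NEDD9 (0.994), MKNK2 (0.994), and TENT4B (0.993). All 5 were higher at 12 h, by 1.58 (TENT4B) to 2.83 (STK17A) on the log2 scale, and had between -0.13 (TENT4B) and 0.31 (STK17A) with Dox. Among the SR genes, the r with CLK1 was lowest for SRSF6 (-0.95) and SRSF5 (-0.89), and nearest to 0 for SRSF11 (-0.13).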

How the data were processed

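RNA was rRNA-depleted and sequenced in 18 samples. The authors deposited whole-number counts per gene, without normalization, for 22034 genes. The paper's methods name Kallisto, and the submitters' processing notes name STAR, featureCounts, and hg38. Which was used, and whether strand was used, is not given in the sources used here. Symbols were matched for 22011 genes. The filter filterByExpr of edgeR, set to the 6 groups, left 14164 genes, which were scaled by TMM, and tested with limma-voom (R 4.3.3, edgeR 4.0.16, limma 3.58.1), as in the study's methods, with Benjamini-Hochberg adjustment over all tested genes. The 6 VCaP-shERG and 12 parental samples were fitted separately, and the difference of responses over all 18. Values are log2 fold changes with SE, and calls use an adjusted p under 0.05. The methods call the PBITE-1 samples biological replicates. A general statement on biological replicates in the methods does not name the VCaP-shERG libraries. Members and lists were chosen with earlier results of these data known. Named outside the members were ERG, all genes of the other SR and the kinase, phosphatase, and import lists, the lowest and highest gene of each other list, and the 5 genes most like CLK1. The procedure was tested on simulated data. Tried beside these were the quasi-likelihood test of edgeR, DESeq2 1.42.0, other scalings, filters and fits, a replicate block, and leaving out each sample. Total counts of 11308600 to 17483423 put 3 counts at 0.172 to 0.265 CPM. Promoters came from RefSeq tables (GRCh38.p14), annotation from GENCODE 29, and motif searches used Python 3.11.15. Some marker genes are not reported here.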

Additional observations from a re-analysis of the deposited data

Results flagged for a closer look

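For 7 of the 10 genes, the test of the difference between the 12 h PBITE-1 response and the Dox response passed an adjusted p under 0.05 (limma-voom over 18 samples), which marked them for a second look. Of all tested genes, 35.1% passed as lower and 33.3% as higher, so 7 of 10 was near the share of both directions together. As PBITE-1 minus Dox on the log2 scale, the differences were 1.02 for CLK1, -0.85 for SRSF6, -0.65 for SRSF5, -0.55 for SRSF7, -0.32 for SRSF2, -0.14 for SRSF1, and 0.14 for SRSF3. SRSF5 and SRSF6 rose with Dox and fell with PBITE-1, and CLK1 rose with PBITE-1, and with TMM its Dox interval included 0. The experiments differ in agent, line, and possibly time, which cannot be told apart. Groups of 3 were not screened for the gap of a single sample from the others.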

How the results depend on the processing

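Scaling moved the Dox results most. Over all tested genes, the median change with Dox was 0.018 with TMM, 0.18 with upper-quartile factors, and 0.28 with library size alone, and changes near 0 should be read against these shifts. The median difference of responses was -0.022 with TMM, -0.15 with upper-quartile factors, and -0.28 with library size alone. With library size alone, 4 members rose with Dox, and the difference of responses was lower for 8 members and higher for 1. With upper-quartile factors it was higher for 1. List counts with Dox moved too: 7 (upper-quartile) or 6 (library size) of 20 speckle genes fell in place of 17, and 10 rose with library size; kinase list counts became 4 lower and 5 higher, or 3 lower and 7 higher; decay list counts became 6 lower and 3 higher, or 5 lower and 6 higher; and 2 hnRNP genes, 2 U1 and U2 genes, and 2 other SR genes rose with either scaling. The 7 kinase list genes that rose at 12 h became 4 with library size alone, with no filter on low counts, or with all 18 samples in a single fit. The 1 other SR gene that rose with Dox became 0 with DESeq2, the single fit, or the replicate block. Without any filter the median over 21560 genes was 0.16 at 12 h. The shares of all tested genes called under these other settings were not counted. Member and list counts given for those settings, here and above, therefore cannot be set beside such a share.

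Reversed directions had small values, but with library size alone some passed the test in the new direction. These were SRSF11 with Dox (limma-voom adjusted p = 0.00139) and, for the difference of responses, SRSF3 (limma-voom adjusted p = 0.0396) and SRSF11 (limma-voom adjusted p = 0.0029). With Dox, SRSF4 had 0.060 and SRSF11 0.15 with library size alone, and SRSF11 had 0.046 with upper-quartile factors. For the difference of responses, SRSF3 had -0.12, SRSF4 -0.091, and SRSF11 -0.20 with library size alone, and SRSF11 had -0.063 with upper-quartile factors. At 12 h against DMSO, SRSF4 had -0.030 with library size alone and in the single fit, -0.017 with sample quality weights, and, leaving out 1 sample at a time, -0.033 (12 h replicate 2) to 0.057, with -0.019 without DMSO replicate 1. From 8 h to 12 h, SRSF6 had 0.0028 with DESeq2 and with RLE factors, 0.014 with upper-quartile factors, 0.017 with library size alone, and 0.024 with only the groups compared. Leaving out 1 sample at a time, SRSF11 had -0.048 to 0.0098 at 4 h, the latter without DMSO replicate 3; at 12 h, -0.048 to 0.024, with 0.024 without DMSO replicate 3, 0.0068 without 12 h replicate 1, and 0.0030 without 12 h replicate 3; and from 4 h to 12 h, -0.00498 in the single fit, -0.00653 without 4 h replicate 2, and -0.022 to 0.036 when 1 sample was left out, the former without 12 h replicate 2. The cause was not tested.

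When 1 sample was left out at a time, members with a higher difference of responses numbered 1 to 3, with 1 without shERG.DMSO replicate 1 or DMSO replicate 2, and those higher from 4 h to 8 h numbered 1 to 2, with 1 without 4 h replicate 2 or 3 or 8 h replicate 1 or 2. SRSF11 with Dox did not pass without Dox replicate 1 (-0.081) or with at least 10 counts in every sample (-0.068), and CLK1 with Dox passed with the latter (0.11). SRSF10's difference of responses passed with upper-quartile factors (-0.21) and library size alone (-0.34), and SRSF4's with RLE factors (0.19). Over all members and comparisons, 835 values from alternatives that kept all samples and 507 from those that left a sample out kept direction and call. Among alternatives that kept all samples, 16 others reversed direction, 10 passed the test only in the alternative, and 9 no longer passed. With a sample left out, these numbers were 8, 4, and 21. Same-numbered samples had correlations of their deviations from -0.053 to 0.12, so the replicate number was not taken as a pairing. With the replicate block the members lower and higher were 7 and 2 with Dox and 7 and 1 at 12 h, and the difference of responses of SRSF4 passed the test (0.17, adjusted p = 0.0474), which made 3 higher.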
